A study of Homo sapiens with 8 samples.

Results

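DU145 cells, an established line from a human prostate carcinoma, were exposed to FGF19 and to TNFα, alone and together, and the question here is where the effect of both agents differed from the effect of one combined with the effect of the other. The measure was the interaction, (FGF19 + TNFα minus FGF19) minus (TNFα minus Mock), computed for every probeset from the group means of log2 signal. A value of 0 means that TNFα changed the signal by the same fold with FGF19 as without it, and a negative value means that the fold was smaller or more strongly downward with FGF19. Members were the 20555 of 33297 probesets with a signal of 50 or more on every array, so that values near the floor of the arrays did not enter. They held 13942 probesets with 1 gene symbol, for 13221 genes. Just inside the limit lay RGS9 (lowest signal 50.02, interaction −0.11) and KCNH4 (50.04, 0.06), and just outside it CISH (49.99, 0.21) and FAM180B (49.94, 0.11).

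The 8 arrays formed 4 groups of 2, which the labels call biological replicates. All cells were kept in serum-free medium from the day before treatment. The FGF19 + TNFα cells received 50 ng/ml FGF19 with 100 µg/ml heparin for 100 min, with 50 ng/ml TNFα present for the last 90 min. The FGF19 cells received the same FGF19 and heparin for 100 min, the TNFα cells 50 ng/ml TNFα for 90 min, and the Mock cells neither. The methods of the study give lower doses of heparin and TNFα than the labels. Heparin went only to the groups given FGF19, so that FGF19 and heparin cannot be told apart. The epithelial genes KRT8, KRT18, KRT19, EPCAM and CDH1 lay at percentile 80.6 of signal or above on every array. Of 9 markers of other cell types, the leukocyte genes PTPRC and CD3E, the fibroblast gene DCN and the endothelial gene VWF were under 50 on at least 1 array, as was the prostate luminal gene KLK3. The others were members: CD14 of myeloid cells had signals of 73 to 96.4, COL1A1 and COL3A1 of fibroblasts 102 to 125 and 57.8 to 101, and PECAM1 and CDH5 of endothelial cells 54.4 to 75.8 and 315 to 412. Their part in the results was not tested. Median signal per array was 99.54 to 106.6. Over the members, log2 signal correlated at 0.986 to 0.995 between arrays of 1 group and at 0.928 to 0.991 between arrays of different groups. The 4 arrays given FGF19 had 9515 to 10147 probesets under 50, against 10593 to 10973 on the 4 others.

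FGF19 is an endocrine fibroblast growth factor that acts through the receptor FGFR4 with its co-receptor β-Klotho, the product of KLB, and engages the RAS-MAPK cascade. TNFα binds its receptor TNFRSF1A and activates the IKK complex, whose subunit IKKβ (IKBKB) phosphorylates the inhibitor IκB and so releases NFκB to the nucleus. Within the first hours NFκB raises chemokine genes and also its own inhibitors, such as NFKBIA and TNFAIP3. Growth factors raise an overlapping set of immediate-early genes, so that both agents can act on one target.

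Promoters are shown for 4 of the genes with the most extreme interactions, because the results turn most on these genes: the chemokine gene CCL20, the orphan nuclear receptor gene NR4A3, the p21 gene CDKN1A and the ADP-ribosyltransferase gene TIPARP. Each runs 5′ to 3′ from 250 bases before to 50 bases after the RefSeq start in GRCh38.p14, at chr2:227813592-227813891 (+ strand), chr9:99821635-99821934 (+ strand), chr6:36678464-36678763 (+ strand) and chr3:156674340-156674639 (+ strand). Capitals mark matches, on either strand, to the κB-like motif GGNNNTTCC and to the core GCGTG bound by the aryl hydrocarbon receptor.
CCL20: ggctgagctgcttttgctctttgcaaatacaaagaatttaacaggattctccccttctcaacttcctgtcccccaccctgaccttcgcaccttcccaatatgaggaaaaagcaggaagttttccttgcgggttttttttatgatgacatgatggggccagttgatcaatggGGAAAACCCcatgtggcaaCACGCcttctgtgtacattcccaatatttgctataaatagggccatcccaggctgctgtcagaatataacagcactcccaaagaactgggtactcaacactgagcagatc
NR4A3: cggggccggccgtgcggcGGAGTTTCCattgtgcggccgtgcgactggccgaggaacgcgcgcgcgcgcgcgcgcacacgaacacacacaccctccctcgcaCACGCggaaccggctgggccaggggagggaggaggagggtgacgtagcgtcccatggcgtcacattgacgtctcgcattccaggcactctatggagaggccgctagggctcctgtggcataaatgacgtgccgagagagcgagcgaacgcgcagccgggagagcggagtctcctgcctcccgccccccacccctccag
CDKN1A: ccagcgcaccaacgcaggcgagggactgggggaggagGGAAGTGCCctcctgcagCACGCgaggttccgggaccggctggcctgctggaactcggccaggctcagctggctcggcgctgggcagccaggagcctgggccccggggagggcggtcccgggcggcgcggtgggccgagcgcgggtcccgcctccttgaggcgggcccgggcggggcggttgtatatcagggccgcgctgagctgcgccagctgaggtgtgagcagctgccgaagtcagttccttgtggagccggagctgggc
TIPARP: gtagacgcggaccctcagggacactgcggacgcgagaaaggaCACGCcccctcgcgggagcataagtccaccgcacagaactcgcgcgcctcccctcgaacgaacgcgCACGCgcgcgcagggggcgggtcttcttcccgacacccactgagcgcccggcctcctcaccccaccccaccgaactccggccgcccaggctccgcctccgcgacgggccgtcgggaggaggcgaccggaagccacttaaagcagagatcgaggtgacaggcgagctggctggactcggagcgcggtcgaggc
The κB-like motif was present in CCL20, NR4A3 and CDKN1A and had no match in TIPARP, which held the aryl hydrocarbon receptor core at 2 places. Matches are a description of letters and do not show that a factor binds.

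Over the members, 0 interactions passed on log2 signal in either direction (limma, adjusted p over all 33297 probesets, percent called 0 for each direction), and the lowest adjusted p was 0.293. At an unadjusted p under 0.05 there were 378 negative (1.84%) and 338 positive (1.64%) interactions from limma, together 3.48% of the members. The interaction had a median of 0.03, a standard deviation of 0.202 across members and a median standard error of 0.162. Its 1st and 99th percentiles were −0.58 and 0.53. Interactions of −0.5 or below numbered 346 (1.68%) and those of 0.5 or above 249 (1.21%), and 17 lay at −1 or below (0.0827%) against 5 at 1 or above (0.0243%). When the fit and the adjustment were limited to the members, CCL20 and NR4A3 passed as negative (0.00973% of members, adjusted p = 0.0285 each, limma). With a trended and robust prior in limma, CCL20, NR4A3, CYP1B1 and TIPARP passed (adjusted p = 0.0184, 0.034, 0.0216 and 0.034). Interactions on log2 signal are therefore given below as values and not as changes.

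The TNFα response itself passed the test for a small share of the members, and most of those that TNFα raised had interactions below 0. With FGF19 present, 75 members were higher in FGF19 + TNFα than in FGF19 (0.365%) and 1 was lower (0.00486%). Without it, 259 were higher in TNFα than in Mock (1.26%) and 15 lower (0.073%). Averaged over both states of FGF19, 357 members were higher with TNFα (1.74%) and 34 lower (0.165%). This average uses the arrays in a combination independent of the interaction, although both share the estimate of the spread, and it was chosen after values had been seen. Of the 357, 338 had an interaction below 0 (94.7%), against 42.2% of all members, and their median was −0.286. An interaction of −0.5 or below was found in 73 of them (20.4%, against 1.68% of members) and one of 0.5 or above in 1.

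The mean log2 signal of the 357 probesets was 9.05 and 9.08 on the FGF19 + TNFα arrays and 8.36 and 8.40 on the FGF19 arrays. It was 9.06 and 9.11 on the TNFα arrays and 8.09 and 8.07 on the Mock arrays. Thus the groups given TNFα reached nearly the same mean over this set, whereas the arrays with FGF19 alone lay above Mock. This mean does not describe each probeset, since 93 were higher in FGF19 + TNFα than in TNFα and 82 lower. Likewise 185 were higher in FGF19 than in Mock and 47 lower. Signal per array is relative, and a change in the share of responding cells cannot be told apart from a change in RNA per cell. The mean TNFα response was 0.69 on log2 with FGF19 and 1.00 without it, a difference of −0.315 (standard error 0.037 between arrays). Over all members the same quantity was 0.024 (standard error 0.017). The 357 were called by a test that favors a small spread between these arrays, so their standard error may be too low. The 34 probesets that were lower with TNFα showed the opposite sign, with 7 interactions below 0 (20.6%) and a median of 0.203.

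**Figure D1:**
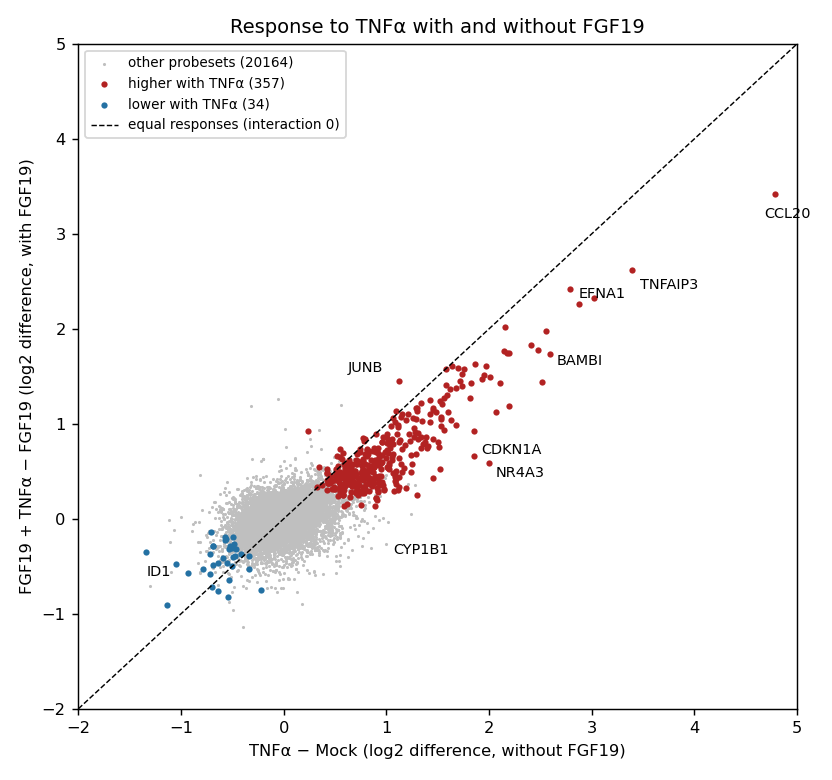
Difference of group means in log2 signal for each of the 20555 members, FGF19 + TNFα minus FGF19 on the vertical axis against TNFα minus Mock on the horizontal axis, with the probesets that TNFα raised or lowered on average in red and blue. Of the 357 red points, 338 lie below the dashed line of equal responses.

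Of these 357 probesets, 177 were also higher with FGF19 averaged over TNFα (29.6% of members were), 80 were lower with FGF19 (27.4% of members), and 100 were called in neither direction, a division that was likewise made after values had been seen. Interactions below 0 made up 96%, 93.8% and 93% of the 3 sets, with medians of −0.315, −0.23 and −0.283. The sign was therefore shared by sets with opposite average effects of FGF19. Against Mock alone, FGF19 was called higher for 172 of the 177 (21.8% of all members) and lower for 47 of the 80 (21.2%). In FGF19 + TNFα against TNFα, 93 of the 177 were higher (22.1% of all members) and 70 of the 80 lower (18.8%). The average that chose the sets holds both differences, so these counts are not separate evidence. In the first set the mean log2 signal was 9.27 and 9.33 with FGF19 + TNFα and 8.70 and 8.66 with FGF19, and 8.88 and 8.93 with TNFα and 7.94 and 7.95 in Mock. In the set that was lower with FGF19 on average it was 8.67 and 8.64 with FGF19 + TNFα, 7.82 and 7.97 with FGF19 alone, 9.36 and 9.40 with TNFα, and 8.39 and 8.32 in Mock. Signal strength also moved the share little: it was 95.9% among the 146 probesets with a mean signal of 500 or more and 93.8% among the 211 below.

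**Figure D2:**
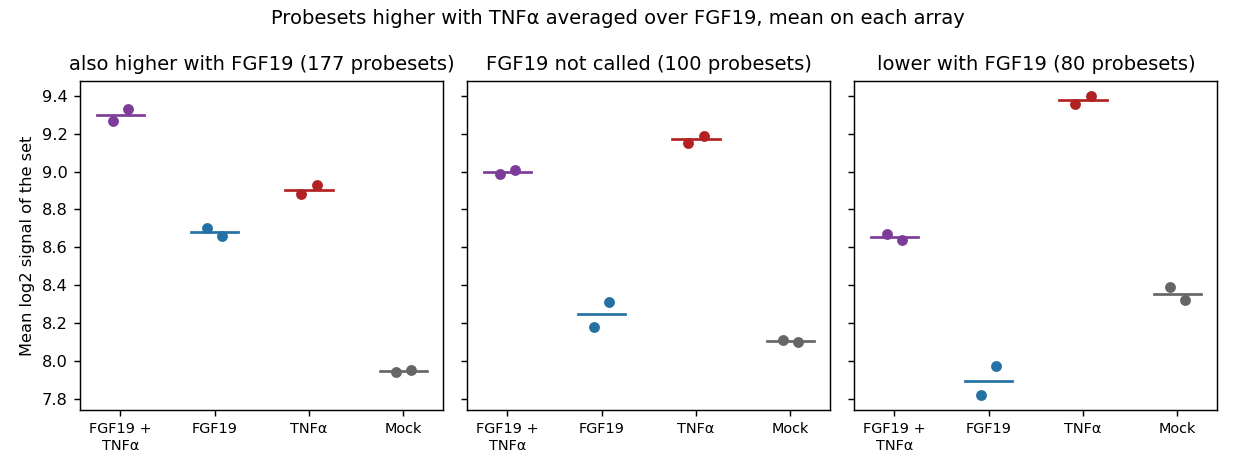
Mean log2 signal on each array (points, vertical axis) and group mean (lines) of the probesets that TNFα raised, divided by the effect of FGF19 into 177, 100 and 80 probesets. In each panel the step between FGF19 + TNFα and FGF19 is smaller than the step between TNFα and Mock.

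Read in the other direction, the same interaction is the effect of FGF19 with and without TNFα. FGF19 + TNFα differed from TNFα in 4535 members that were higher (22.1%) and 3871 that were lower (18.8%), and FGF19 from Mock in 4480 (21.8%) and 4357 (21.2%). Among the 357 probesets that TNFα raised, 93 were higher in FGF19 + TNFα than in TNFα and 82 lower, whereas 185 were higher in FGF19 than in Mock and 47 lower. The median difference was 0.03 with TNFα and 0.37 without it.

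Whether effects are additive depends on the scale, so the interaction was also fitted to linear signal, where 0 means that the increments of both agents add. Here 7 members passed as negative (0.0341%) and 1 as positive (0.00486%; limma with a trended prior). EFNA1, which encodes an ephrin and is a TNFα target, had signals of 845 and 723 with FGF19 + TNFα and 134 and 158 with FGF19, and of 1909 and 1922 with TNFα and 280.4 and 274 in Mock. Added increments would give 1785 for the combination, and the linear interaction was −1001 (adjusted p = 0.00349), but on log2 it was only −0.37 (standard error 0.17). LAMB3, a laminin chain gene, behaved alike, with −902 on the linear scale (adjusted p = 0.0421) and −0.12 on log2. Both genes were lower with FGF19 than in Mock, and multiplied effects would give 1007 for EFNA1, whose combination mean was 784, and 1264 for LAMB3, whose mean was 1165. CDKN1A (−389, adjusted p = 0.00959), G0S2 (−685, adjusted p = 0.0241), PPP1R15B (−959, adjusted p = 0.0404), CYP1B1 (−1314, adjusted p = 0.0417) and STC2 (−494, adjusted p = 0.0421) were below both expectations. The probeset that was positive, 8158684, has no gene symbol, and its interaction was 503 on the linear scale but −0.58 on log2. Of the 357 probesets that TNFα raised, 276 (77.3%) had a linear interaction below 0, against 42% of members. The share was 59.9% in the 177 that FGF19 also raised and 97.5% in the 80 that were lower with it. Where TNFα raises a gene, multiplied effects give a linear value above 0 if FGF19 raises it and below 0 if FGF19 lowers it. Conversely, added increments give a log2 value below 0 if FGF19 raises such a gene and above 0 if FGF19 lowers it. The division by FGF19 thus pushes the sign by arithmetic on both scales. For this reason neither scale can decide whether the pattern was weaker in the first set. On log2 the shares below 0 were 96% and 93.8%. Leaving out 1 array at a time left 0 to 6 negative calls and 0 to 1 positive calls.

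The 24 genes with the smallest interaction p, 12 in each direction among members with 1 gene symbol, all missed the threshold over the whole table. Most fell into a few forms of response. In the first form each agent alone gave a higher mean than Mock, and the combination lay below what multiplied effects would give. NR4A3 had signals of 370.1 and 398 with FGF19 + TNFα and 254 and 255 with FGF19. It had 260.2 and 269 with TNFα and 63.5 and 69.4 in Mock. Either agent alone thus brought NR4A3 to about the same level, well above Mock, and the combination lay above both without reaching the 1016 that multiplied effects would give. The combination was 1.45-fold above TNFα alone (adjusted p = 0.00783, limma). Against FGF19 alone it was 1.51-fold higher, which missed the threshold (adjusted p = 0.106, limma). The gene was 3.84-fold higher with FGF19 (adjusted p = 0.00275) and 3.99-fold higher with TNFα (adjusted p = 0.000886) than in Mock, and its interaction was −1.40 (95% interval −1.71 to −1.10, limma). On the linear scale the combination was 69 below the sum (adjusted p = 0.856), so NR4A3 was close to additive there.

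The related orphan receptor genes behaved alike in part. NR4A2 had 280.4 and 294 with FGF19 + TNFα, 219.7 and 206 with FGF19 alone, 229.6 and 178 with TNFα, and 71.3 and 76 in Mock (interaction −1.02). NR4A1 differed in that FGF19 alone left it near Mock: it had 199.9 and 217 with FGF19 + TNFα and 87.9 and 95 with FGF19, and 363 and 336 with TNFα and 82.8 and 70 in Mock. Its TNFα response was 2.28-fold with FGF19 (adjusted p = 0.0216) and 4.59-fold without it (adjusted p = 0.0014), for an interaction of −1.01 (standard error 0.16).

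CYP1B1, CYP1A1 and TIPARP are well-known targets of the aryl hydrocarbon receptor, the first 2 encoding cytochrome P450 enzymes. CYP1B1 had 2008 and 1908 with FGF19 + TNFα, 2453 and 2266 with FGF19 alone, 1858 and 1807 with TNFα, and 969 and 871 in Mock. All 6 treated arrays lay above Mock, and the combination was no higher than FGF19 alone. CYP1B1 was 2.57-fold higher with FGF19 (adjusted p = 0.00275) and 1.99-fold higher with TNFα (adjusted p = 0.00898) than in Mock, and its interaction was −1.26 (standard error 0.14). TIPARP had 2513 and 2608 with FGF19 + TNFα, 2903 and 2888 with FGF19 alone, 2721 and 2755 with TNFα, and 1724 and 1599 in Mock, for −0.90 (standard error 0.12). CYP1A1 was dimmer, at 70.5 and 73.3 with FGF19 + TNFα, 90.9 and 113 with FGF19 alone, 93.9 and 88.9 with TNFα, and 68.8 and 56.5 in Mock, for −1.05 (standard error 0.21). In all 3 genes each agent alone gave higher signals than Mock on every array, although for CYP1A1 the TNFα difference missed the threshold (adjusted p = 0.213). The whole list of aryl hydrocarbon and oxidative stress genes did not share this, since the median over its 24 members, these 3 included, was −0.032 and 13 were below 0. This median ranged from −0.113 without Mock replicate 1 to 0.008 without FGF19 replicate 2. The transcriptional repressor gene BCL6 (−0.68), LACC1 (−0.67), the RNase gene ZC3H12C (−0.75) and the cell cycle inhibitor gene CDKN2B (−0.57) also had higher signal with either agent than in Mock. So did AMPD3 (−0.69). For LACC1 the combination was 1.36-fold above TNFα alone (adjusted p = 0.0118, limma) but was not called against FGF19 alone (adjusted p = 0.233, limma).

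In the second form FGF19 alone was not called against Mock and the mean TNFα response was smaller with it. CDKN1A, the gene of the cell cycle inhibitor p21, had 278 and 291 with FGF19 + TNFα and 185 and 174 with FGF19, against 703 and 661 with TNFα and 196 and 181 in Mock. FGF19 and Mock arrays overlapped, while the combination lay far below TNFα. The TNFα response was 1.59-fold with FGF19 (adjusted p = 0.0784) and 3.62-fold without it (adjusted p = 0.00118), and the interaction was −1.19 (standard error 0.13). The chemokine gene CCL5 had 92.1 and 83.6 with FGF19 + TNFα and 61.5 and 60.9 with FGF19, and 191 and 218 with TNFα and 79 and 63.5 in Mock (−1.01, standard error 0.19). PPP1R15B encodes a regulator of the phosphatase that acts on eIF2α. It had 1452 and 1533 with FGF19 + TNFα, 849.8 and 906 with FGF19 alone, 2504 and 2546 with TNFα, and 1001 and 903 in Mock (−0.64). For STC2, a stress-responsive glycoprotein hormone gene, the means differed in direction, as they also did for CYP1B1, TIPARP and CYP1A1: 686 and 639.5 with FGF19 + TNFα lay below 769.6 and 804 with FGF19, whereas 1297 and 1266 with TNFα lay above 932 and 890.2 in Mock. Neither STC2 difference passed by itself (adjusted p = 0.695 and 0.0711), and its log2 interaction was −0.74.

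In the third form FGF19 raised the starting level and TNFα brought cells with or without FGF19 to a similar level. CCL20 had 2743 and 2642 with FGF19 + TNFα and 249 and 253 with FGF19. It had 2932 and 3030.5 with TNFα and 104 and 112 in Mock. TNFα thus raised CCL20 10.7-fold with FGF19 and 27.5-fold without it (adjusted p = 0.000285 and 3.6e-05), and FGF19 raised it 2.32-fold in the absence of TNFα (adjusted p = 0.00275). The interaction was −1.36 (95% interval −1.65 to −1.08) and the linear one −432 (adjusted p = 0.466). TNFAIP3, the gene of the NFκB inhibitor A20, had 2048 and 2196 with FGF19 + TNFα and 321 and 371 with FGF19, and 2393 and 2396 with TNFα and 219.9 and 235 in Mock (−0.77, standard error 0.15). BAMBI, which encodes a decoy receptor of the TGFβ family, had 669 and 661 with FGF19 + TNFα, 200 and 198 with FGF19 alone, 686 and 768 with TNFα, and 123 and 118 in Mock (−0.85). CXCL1, another chemokine gene, had −0.69 on log2 but 88.2 on the linear scale, where it was not called (adjusted p = 0.974).

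**Figure D3:**
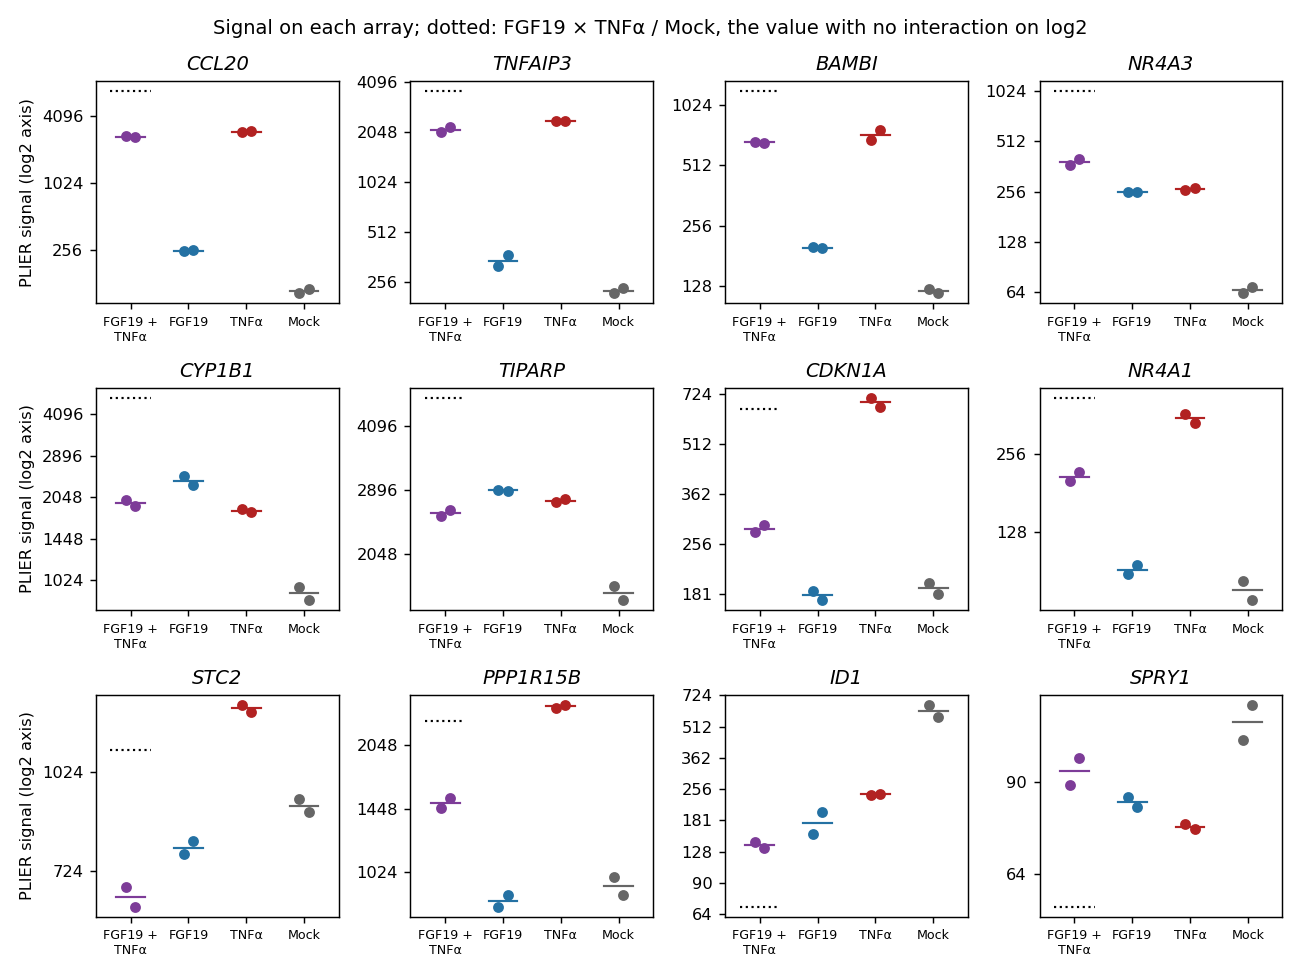
Signal of 12 genes on each array (points, log2 axis) with the geometric group mean (lines), and the signal that multiplied effects would give for FGF19 + TNFα (dotted). The combination lies below the dotted line for the 10 genes with a negative interaction and above it for ID1 and SPRY1.

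Of the 12 genes with the smallest p for a positive interaction, all but PLEKHM1 and HSD3BP4 had a lower mean with each agent alone than in Mock. Only ID1 and PHF23 passed the test for both. Larger positive values, up to 1.51 among all members, had a larger p or no single gene symbol. ID1, an inhibitor of basic helix-loop-helix factors, had 143 and 133 with FGF19 + TNFα and 155 and 199.5 with FGF19, against 240.3 and 243 with TNFα and 652 and 572 in Mock. Each agent alone lowered ID1, 3.47-fold for FGF19 (adjusted p = 0.00275) and 2.53-fold for TNFα (adjusted p = 0.013), and the combination lay little below FGF19. Its interaction was 0.98 (95% interval 0.50 to 1.47). PHF23 followed, with 181 and 173 with FGF19 + TNFα, 189 and 201 with FGF19 alone, 216 and 232 with TNFα, and 356 and 377 in Mock (0.58). SPRY1, a feedback inhibitor of receptor tyrosine kinase signaling, had 89.4 and 99.2 with FGF19 + TNFα, 85.6 and 82.3 with FGF19 alone, 77.4 and 75.8 with TNFα, and 106 and 121 in Mock (0.73). The stress regulator gene NUPR1 (0.58) and NACC2 (0.68) likewise had lower means with each agent than in Mock. TAFA5 (0.70), WFIKKN2 (0.61), PLEKHM1 (0.53), GNG3 (0.55), CRMP1 (0.74), MTRFR (0.43) and the pseudogene HSD3BP4 (0.82) made up the 12, and each had a mean signal under 500 in every group.

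Among the gene lists the lowest medians belonged to targets of the 2 pathways and not to the pathways themselves. No list had a called interaction. Of the 31 measured NFκB inflammatory targets, 12 were higher in FGF19 + TNFα than in FGF19 (0.365% of all members were) and 17 in TNFα than in Mock (1.26% of all members). An interaction below 0 was found in 21 (42.2% of all members), and the median was −0.232. IRF1, a transcription factor gene, had 1616 and 1659 with FGF19 + TNFα, 303 and 384 with FGF19 alone, 1965 and 1983 with TNFα, and 288 and 251 in Mock (−0.61). IL6 and CXCL8, both raised by TNFα in both states, had −0.36 and −0.38. Of 33 genes of NFκB feedback and survival, 12 and 18 were higher, 29 had an interaction below 0 and the median was −0.19, which became −0.08 without FGF19 replicate 2. NFKBIA, the gene of IκBα, had 4779 and 4582 with FGF19 + TNFα, 1641 and 1889 with FGF19 alone, 5163 and 5180.1 with TNFα, and 1799.6 and 1654 in Mock, for only −0.17 (standard error 0.14). Thus the difference between the states of FGF19 was little more than its error for this early target of NFκB, and the values within the list were widely spread.

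The 41 immediate-early transcription factor genes had the lowest median, −0.265, with 31 below 0. Of the 41, 4 were higher in FGF19 + TNFα than in FGF19 and 16 in TNFα than in Mock, where 0.365% and 1.26% of all members were. HES1 had 102 and 103 with FGF19 + TNFα, 98.2 and 105 with FGF19 alone, 141 and 138 with TNFα, and 62.8 and 81 in Mock (−0.96). KLF4 had −0.75, FOSL2 −0.58 and ATF3 −0.57. JUNB and EGR1 lay on the other side, with 0.32 and 0.47. JUNB, a subunit of AP-1, had 323 and 344 with FGF19 + TNFα, 113 and 132 with FGF19 alone, 362 and 397 with TNFα, and 187 and 161 in Mock. The feedback genes of MAPK signaling had a median of −0.155 (21 of 32 below 0), which became −0.074 without FGF19 replicate 2, and they ran from DUSP6, an ERK phosphatase gene (−0.54), to SPRY1. The 32 genes of the integrated stress response had a median of −0.066, or −0.173 without FGF19 replicate 1, with 25 below 0, among them PPP1R15A (−0.60) and SESN2 (−0.60).

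The genes that carry the signals had medians near that of all members. The median was 0.02 for 29 genes between the TNFα receptor and IKK (13 below 0) and 0.03 for 30 genes of the FGF receptor and RAS-MAPK pathway (13 below 0). FGFR4 had 123 and 115 with FGF19 + TNFα, 129.5 and 126 with FGF19 alone, 151 and 166 with TNFα, and 168 and 151 in Mock, for an interaction of −0.10 (95% interval −0.44 to 0.24). KLB (−0.08), IKBKB (−0.02) and TNFRSF1A (0.15) had intervals that also held 0. The medians were −0.013 for 34 mRNA decay factors, 0.011 for 40 death receptor and apoptosis genes, −0.032 for 38 interferon response genes, −0.063 for 28 genes of the ID and TGFβ response and 0.027 for 25 genes of cholesterol and fatty acid synthesis. Small medians like these moved with single arrays: leaving out 1 array gave −0.021 to 0.074 for the genes from the TNFα receptor to IKK, −0.005 to 0.092 for the FGF receptor genes and −0.058 to 0.006 for mRNA decay. It gave −0.027 to 0.074 for the death receptor genes, −0.099 to 0.006 for the interferon response, −0.079 to −0.008 for the ID and TGFβ response and −0.036 to 0.101 for cholesterol synthesis. In 29 cell cycle inhibitor genes the median was 0.038 (0.106 without Mock replicate 2), whereas CDKN1A was at the low end of the list. Large families lay slightly above 0: 0.087 for 72 subunits of oxidative phosphorylation, 0.09 for 34 proteasome subunits, 0.091 for 60 ribosomal proteins, 0.081 for 47 histones and 0.05 for 408 zinc finger genes. Without FGF19 replicate 1 the medians were 0.021 for oxidative phosphorylation, 0.041 for the proteasome, 0.053 for ribosomal proteins and −0.059 for histones, which changed sign. Without FGF19 replicate 2 they were 0.182, 0.184, 0.133 and 0.159, and the zinc finger genes ranged from 0.028 to 0.071 over the arrays left out. Probesets of ribosomal protein and histone genes can also measure near-identical copies.

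**Figure D4:**
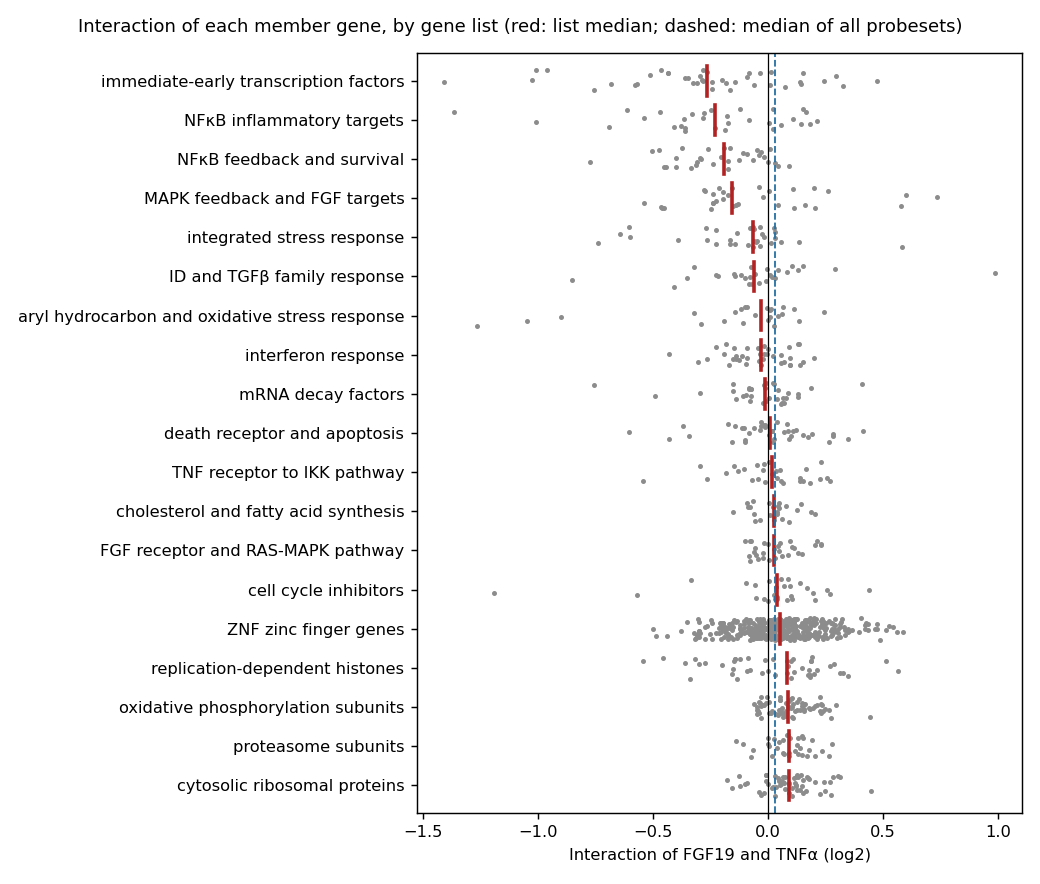
Interaction on log2 signal (horizontal axis) of each measured gene (grey points) in 19 gene lists, with the list median in red and the median of all members, 0.03, dashed. The lists of immediate-early genes (−0.265) and NFκB targets (−0.232 and −0.19) have the lowest medians.

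Among the genes that the study discussed for FGF19 + TNFα against TNFα, 8 are given here. In that comparison GAB1 (2.37-fold, brighter probeset), IRF2 (2.33-fold) and CCNK (2.25-fold) were higher (adjusted p = 0.00348 each, limma). CDKN1A (2.4-fold), BTG1 (2.26-fold), TNFRSF10B (2.38-fold) and MTCH1 (2.5-fold) were lower (adjusted p = 0.00348 each, limma), as was FADD (2.63-fold, adjusted p = 0.00383). These are the directions in the study, from the same arrays. The interaction asks instead whether the effect of FGF19 differed with and without TNFα. The probeset for MIF is annotated with more than 1 gene and gives no value for it. GAB1, an adaptor of receptor tyrosine kinases, had 381 and 419 with FGF19 + TNFα, 472 and 416 with FGF19 alone, 162 and 175 with TNFα, and 206 and 228 in Mock. At this probeset GAB1 was thus high wherever FGF19 was given, and the interaction was 0.21 (95% interval −0.17 to 0.60). Its other probeset, which was dimmer, did not show this. There the means were 86.3 with FGF19 + TNFα, 82.2 with FGF19 alone, 82 with TNFα and 103 in Mock, for an interaction of 0.40. IRF2 (0.13), CCNK, the gene of cyclin K (0.03), and the mitochondrial carrier gene MTCH1 (0.15) had intervals that held 0. The death receptor gene TNFRSF10B had 962 and 904 with FGF19 + TNFα, 608 and 713 with FGF19 alone, 2186 and 2245 with TNFα, and 1273 and 1191 in Mock (−0.35, 95% interval −0.71 to 0.02). FADD, the death receptor adaptor gene, had 520.1 and 572 with FGF19 + TNFα, 468 and 665 with FGF19 alone, 1378 and 1496 with TNFα, and 1867 and 1866 in Mock (0.35, 95% interval −0.24 to 0.93). BTG1, an antiproliferative gene, had −0.49 (95% interval −0.80 to −0.17) and CDKN1A −1.19. An interval that holds 0 does not show that effects multiply.

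A few genes that TNFα raised had interactions at or above 0, and these were chosen after their values were seen. RELA, the p65 subunit of NFκB, had 794 and 799.7 with FGF19 + TNFα, 631 and 629.5 with FGF19 alone, 593 and 604 with TNFα, and 477 and 476 in Mock (0.01, standard error 0.11). RAPH1 had 879 and 1012 with FGF19 + TNFα, 497 and 408 with FGF19 alone, 543 and 535 with TNFα, and 248 and 268 in Mock, for an interaction of 0.00. KYNU, a kynureninase gene (0.05), PLK2, a polo-like kinase gene (0.06), and PLAU, the urokinase gene (0.02), were others. Of the genes named above, EFNA1, LAMB3, G0S2, NR4A2, IRF1, IL6, CXCL8, NFKBIA, HES1, KLF4, FOSL2, ATF3, JUNB, EGR1, PPP1R15A and SESN2 also lay outside the rule for naming genes and were chosen with their values known.

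In the promoters of the 12 genes with the lowest p for a negative interaction, the κB-like motif was found in 5 of 11 with an entry (45.5%), against 2 of 10 for the positive ones (20%), 23% of members and 20.1% of all promoters. The aryl hydrocarbon receptor core GCGTG, a motif added after values were seen, was in 63.6% and 60% of the same sets, 50.1% of members and 36.3% of all promoters. The GC box GGGCGG was in 63.6% and 60%, against 69.2% of members and 44.6% of all promoters. The cAMP response element TGACGTCA and the AP-1 motif TGANTCA were in 0 promoters of either set, against 3.11% and 4.43% of members and 1.98% and 7.76% of all promoters. Both strands were searched, and with so few genes these shares are a description.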

How the data were processed

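Total RNA of DU145 cells was measured on 8 Affymetrix Human Gene arrays. The authors deposited linear signal intensity for 33297 probesets, made with Affymetrix Expression Console and PLIER per the submitters' processing notes. Their versions and any normalization were not given in the sources used here. With 2 arrays per group, p-values measure only the spread between these arrays. Groups came from the sample labels.

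Signals of 0 (240 values) were replaced by the lowest positive signal of the same array, and log2 was taken with no normalization added. Over all arrays the lowest positive signal was 0.01. In limma 3.58.1 (R 4.3.3), 4 group means were fitted to all 8 arrays and all probesets, and the interaction was taken as a contrast with moderated variances (4 residual degrees of freedom, prior 2.19). P-values were adjusted by Benjamini and Hochberg over all 33297 probesets, called at 0.05 and then counted among the 20555 members. The contrast was also fitted to linear signal with a trended prior. Both steps were also run on simulated data with known interactions. The outcome is not given here, so how large an interaction 2 arrays per group could detect is not stated.

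Platform annotation named 1 gene for 19460 probesets and several for 1754, with 12083 unnamed, and 19429 symbols were matched to RefSeq (GRCh38.p14). Where several member probesets carried a listed gene, the brightest was used. The members, the 19 lists and the tests were chosen with earlier results of these data known. Named genes were the 12 in each direction with the smallest interaction p among members with 1 symbol (none being called), up to 3 from each list, the genes discussed by the study, and FGFR4, KLB, IKBKB and TNFRSF1A. Motif shares, planned for called members, were counted over those 12 for the same reason. RefSeq promoters matched 10466 of the 13221 member genes. Alternatives were normalization by quantiles or by cyclic loess, an offset of 16, a floor of 100, a fit over the members only, unmoderated variances, a trended and robust prior, a replicate block, and the omission of each array in turn. Figures were drawn with matplotlib 3.10.9.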

Additional observations from a re-analysis of the deposited data

Results flagged for a closer look

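The 8 interactions that passed on linear signal mark probesets whose response to TNFα differed between cells with and without FGF19 by a test of that difference (limma). EFNA1 had −1001, CDKN1A −389, G0S2 −685, PPP1R15B −959, CYP1B1 −1314, LAMB3 −902 and STC2 −494, all below the sum of the separate increments, and probeset 8158684, which has no symbol, had 503. Of these, LAMB3 (−0.12) and EFNA1 (−0.37) had small interactions on log2, and the sign of probeset 8158684 differed between the scales (−0.58 on log2). On log2 signal none of the 8 passed over the whole table. G0S2, which encodes an inhibitor of the lipase ATGL, had 834 and 888 with FGF19 + TNFα, 392 and 447 with FGF19 alone, 1677 and 1652 with TNFα, and 580 and 497 in Mock. Probeset 8158684 had 1343 and 1312 with FGF19 + TNFα, 345 and 327 with FGF19 alone, 533 and 645 with TNFα, and 116 and 85.3 in Mock.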

How the results depend on the processing

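On log2 signal the count of called interactions was 0 in both directions under quantile and loess normalization, 16 added, a floor of 100, no moderation, the replicate block and without any single array; it was 2 negative over the members only and 4 negative with a trended and robust prior. Called linear interactions were 11 negative after quantile and 14 after loess normalization, 16 negative and 2 positive over the members only, 0 and 0 without moderation, and 0 positive at a floor of 100. Without 1 array they were 0 to 6 negative and 0 to 1 positive. Members called for FGF19 + TNFα against FGF19 (76 in both directions together) were 142 with 16 added, 194 over the members only, 34 without moderation, 195 with the trended prior, and 4 (without FGF19 + TNFα replicate 2) to 37 without 1 array. For TNFα against Mock (274) they were 421, 614, 163, 526, and 59 (without Mock replicate 2) to 216. FGF19 + TNFα against TNFα gave 3692 to 9004 and FGF19 against Mock 4842 to 8192 without 1 array. The TNFα-raised probesets numbered 674 over the members only, 602 with the trended prior and 142 to 265 without 1 array. Their share with an interaction below 0 was 90.4% with 16 added, 86.5% over the members only, 91.4% without moderation, 88.5% with the trended prior and 87.9% to 96.8% without 1 array, and their medians were −0.244, −0.232, −0.241, −0.235 and −0.388 to −0.234. With the replicate number as a block, 0 log2 interactions, 3 negative and 0 positive linear interactions, and 47 members for FGF19 + TNFα against FGF19 were called. The numbers were not taken to pair the samples, since deviations of same-numbered arrays correlated at −0.00176 to 0.342 with the lowest values for Mock. Of the 77 named genes, CCNK (−0.13 to 0.2), IKBKB (−0.17 to 0.12), KLB (−0.23 to 0.07) and MTCH1 (−0.01 to 0.32) changed sign when 1 array was left out, at the first 3 without FGF19 replicate 2 and at MTCH1 without FGF19 replicate 1; KLB was also 0.04 without TNFα replicate 2 and 0.03 without FGF19 + TNFα replicate 1. The causes were not tested.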

Other observations

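Several NFκB targets fell outside the members because their signal was under 50 on at least 1 array, and these were chosen after their values were seen. The pentraxin gene PTX3 had 154 and 161 with FGF19 + TNFα and 22.2 and 22.5 with FGF19, and 268 and 302 with TNFα and 18.9 and 21.8 in Mock. CXCL10, an interferon-inducible chemokine gene, had 102 and 84.3 with FGF19 + TNFα and 32.7 and 35.3 with FGF19, and 147 and 189.6 with TNFα and 26.1 and 26.9 in Mock. The adhesion molecule gene SELE had 74 and 77.8 with FGF19 + TNFα and 13.4 and 10.8 with FGF19, and 129.7 and 158 with TNFα and 12 and 12.2 in Mock. In all 3 genes both combination arrays lay below both TNFα arrays, and the interactions were −0.99, −1.20 and −0.91, none of which passed over the whole table (adjusted p = 0.738 to 0.761, limma). Of 19 such targets, BCL2A1 lay lower still (−1.29), with 246 and 317 with FGF19 + TNFα against 451 and 463 with TNFα. TRAF1 (−0.68) and CFB (−0.67) were also negative, whereas VCAM1 (0.64) and SAA2 (0.48) were positive. Others had values closer to 0. TNIP3 had 94.7 and 84 with FGF19 + TNFα and 50.8 and 51.9 with FGF19, and 51.1 and 78.3 with TNFα and 39 and 29.4 in Mock, so that the combination lay above TNFα (−0.10). CXCL11 had 57.6 and 73.8 with FGF19 + TNFα, against 66.6 and 55.3 with TNFα (−0.46), and IL15 had 76.6 and 82.6 with FGF19 + TNFα, against 79.5 and 94.6 with TNFα (−0.18). Sizes that start near the floor are uncertain.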
